A study of Homo sapiens with 4 samples.

Results

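The guanylate-binding protein (GBP) genes are an interferon-inducible family that sits in 1 cluster on human chromosome 1. Described here are the 6 rows GBP1, GBP1P1, GBP2, GBP3, GBP4 and GBP5, of 26475 genes counted in this experiment, and all 6 were among the 15204 genes that reached 10 counts in 1 library or more. They were chosen by family name and selected on the same read counts that are described below, so their levels and differences are a description and nothing is supported by them. The other family genes in the count tables, GBP6 and GBP7, are not members and are given beside them.

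RNA was sequenced from MDA-MB-468 mammospheres, grown from an established basal-like triple-negative breast cancer (TNBC) line, to see how the transcriptome changes when TCOF1 is knocked out. TCOF1 encodes treacle, a nucleolar protein with a known role in ribosomal RNA production. The authors reported no reduction of the ribosomal RNAs they measured after TCOF1 knockout in TNBC cells. All cells carried Cas9, and a lentiviral vector expressed the guide RNA when doxycycline (dox) was added. CTL cells carried the control construct and were labelled wild type, without dox (CTL) or with it (CTL+dox). The other cells carried TCOF1 gRNA2, without dox (gRNA2, also labelled wild type) or with dox to induce the knockout (gRNA2+dox). The knockout cells are a transduced pool and not a clone, several plates were pooled for each group, and each condition has 1 library. No difference therefore has a replicate check, intervals cover counting error only, and each comparison is one of libraries and not of conditions. The comparisons also share libraries, and gRNA2+dox stands in 3 of the 5.

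GBP proteins are large GTPases of the dynamin superfamily. Interferon gamma induces them through JAK kinases and transcription factors that dock at GAS and ISRE sequences in the promoters of target genes. The proteins hydrolyse GTP, assemble into coats on membranes, and some are anchored there by a prenyl group. They are best known for attacking the vacuoles and surfaces of microbes inside cells and for feeding inflammasome and pyroptosis pathways. In tumours their transcripts are commonly read as a trace of interferon gamma signalling, and epithelial cells make them as well as immune cells.

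Counts on genes were 22168624 in gRNA2+dox, 26322847 in gRNA2, 22467410 in CTL+dox and 19960644 in CTL. Levels are given as CPM, a gene's counts as a share of the library after scaling by edgeR's TMM factors, and 3 counts, taken as the floor of detection, correspond to 0.114 to 0.148 CPM. TCOF1 had 437 reads in gRNA2+dox, 1318 in gRNA2, 754 in CTL+dox and 1019 in CTL. Its log2 ratio was -1.32 over gRNA2 (95% interval -1.48 to -1.17) and -0.74 relative to CTL+dox (-0.92 to -0.57), and the log2 ratio of CTL+dox over CTL was itself -0.59 (-0.73 to -0.45). The 12 epithelial and basal-like markers were all above the floor, with a sum of 28117 to 31091 CPM. ESR1 had 4 to 13 reads, PGR 0 to 7 and ERBB2 270 to 387.

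The cluster spans 418 kb of chromosome 1 in GRCh38.p14, the RefSeq assembly that matches the hg38 build named in the processing labels. From one end to the other it holds GBP3 (chr1:89006680-89022866), GBP1 (chr1:89052319-89065208), GBP2 (chr1:89106132-89126114), GBP7 (chr1:89131742-89176003), GBP4 (chr1:89181144-89198942), GBP5 (chr1:89256189-89272860), GBP6 (chr1:89364059-89388160) and GBP1P1 (chr1:89407679-89424934). GBP6 and GBP1P1 are on the plus strand and the other 6 are on the minus strand. GBP1P1 is annotated by RefSeq as a transcribed pseudogene with the synonym LIMIT. The other 5 members are protein coding.

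Promoter windows are shown because the family's best-known inducer acts through them. RefSeq promoters, 250 bases before to 50 bases after the start, were held for GBP1, GBP3 and GBP4 among the members. A search on both strands for the ISRE half-site pair, GAAANNGAAA, found 1 match in each of the 3 windows, in every case read as its reverse complement on the gene's own strand. The interferon gamma activated site (GAS), TTCNNNGAA, was found in GBP3 alone. Below, 60 bases before the ISRE match and 12 after it are printed on the minus strand of GRCh38.p14 (RefSeq), with both kinds of match in capitals.
GBP1 (chr1:89065314-89065395): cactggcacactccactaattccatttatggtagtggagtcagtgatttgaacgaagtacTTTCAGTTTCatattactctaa
GBP3 (chr1:89022843-89022924): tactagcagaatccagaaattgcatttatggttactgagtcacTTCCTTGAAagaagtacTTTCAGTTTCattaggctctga
GBP4 (chr1:89198925-89199006): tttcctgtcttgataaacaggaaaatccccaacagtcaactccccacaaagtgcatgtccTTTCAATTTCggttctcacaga

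The windows of GBP1 and GBP3, lined up on the ISRE match, were identical at 61 of 82 positions (74.4%). The letters of the match were the same in both, but only its N letters were free to differ. All these percentages include the match. GBP4 was identical to GBP1 at 29.3% of positions and to GBP3 at 35.4%, without gaps. Counted from the start, with the base before it as -1, the ISRE match lay at -127 to -118 in GBP1, at 3 to 12 in GBP3 and at -4 to 6 in GBP4, and the GAS match of GBP3 at -15 to -7. Among all 27305 RefSeq promoters of this length 996 held the ISRE letters (3.65%) and 2152 the GAS letters (7.88%). The ISRE letters were also in 13 of 25 promoters of listed interferon gamma target genes (52%), in 20 of 29 of type I interferon targets (69.0%) and in 0 of 19 of NF-kappa-B targets. Among the 10 genes nearest to the members in pattern, named further down, 6 had a promoter in the table and 1 of them held the ISRE letters. The GAS letters were in 16% of interferon gamma target promoters, 20.7% of type I and 15.8% of NF-kappa-B, so these shares lay close together. Neither the ISRE letters nor the GAS letters were in the windows of GBP6 or GBP7. A match is a description of letters and not a bound site. Whether the windows bear on the log2 ratios below was not tested.

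GBP1, the best-studied human member, a prenylated GTPase that coats bacteria, had 961 reads in gRNA2+dox, 356 in gRNA2, 210 in CTL+dox and 184 in CTL. The level was 44 CPM in gRNA2+dox (exact Poisson 95% interval 41.3 to 46.9) and 9.09 to 13.5 CPM elsewhere. Counting intervals of gRNA2+dox and the other libraries did not overlap, and CTL and CTL+dox were alike within counting error. Between gRNA2+dox and gRNA2 the log2 ratio was 1.70 (exact Clopper-Pearson 95% interval 1.53 to 1.88), which is 3.25-fold. It was 2.23 relative to CTL+dox (2.02 to 2.46) and 2.27 over CTL (2.05 to 2.51).

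GBP4 and GBP5 were also highest in gRNA2+dox, at lower counts than GBP1. GBP4 had 573 reads in gRNA2+dox, 197 in gRNA2, 105 in CTL+dox and 119 in CTL. Its log2 ratio was 1.81 over gRNA2 (1.57 to 2.05; 3.50-fold), 2.49 relative to CTL+dox (2.19 to 2.81) and 2.15 over CTL (1.87 to 2.46). GBP5, which binds membranes through its prenyl anchor and is known to promote NLRP3 inflammasome assembly, had 829, 306, 132 and 152 reads in the same order. Its log2 ratio was 1.71 over gRNA2 (1.52 to 1.90; 3.26-fold), 2.69 relative to CTL+dox (2.43 to 2.97) and 2.33 over CTL (2.09 to 2.60). Both genes had their lowest count in CTL+dox and their highest in gRNA2+dox. The log2 ratios of GBP1, GBP4 and GBP5 over gRNA2 thus ran from 1.70 to 1.81, and their intervals overlapped.

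GBP2, another prenylated member, was higher in gRNA2+dox by a smaller step. It had 1066 reads in gRNA2+dox, 729 in gRNA2, 479 in CTL+dox and 420 in CTL. The log2 ratio was 0.82 over gRNA2 (0.68 to 0.96; 1.76-fold), 1.20 relative to CTL+dox (1.04 to 1.36) and 1.23 over CTL (1.07 to 1.40). GBP3, which counted the most reads of the family in each library, moved least. It had 1310, 1249, 929 and 751 reads in the order gRNA2+dox, gRNA2, CTL+dox and CTL. Its log2 ratio was 0.34 over gRNA2 (0.23 to 0.45; 1.26-fold), 0.54 relative to CTL+dox (0.42 to 0.66) and 0.69 over CTL (0.56 to 0.82).

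GBP1P1 was close to absent outside the gRNA2 cells. It had 46 reads in gRNA2+dox, 8 in gRNA2, 1 in CTL+dox and 1 in CTL, so CTL and CTL+dox were under the floor of 3 counts. The log2 ratio of gRNA2+dox over gRNA2 was 2.71 (1.70 to 4.09; 6.53-fold). Against the single reads of CTL+dox and CTL it was 5.002 (3.02 to 10.90) and 4.90 (2.86 to 10.75). Those ratios carry wide intervals and change with the prior count, and no ratio is given between CTL+dox and CTL.

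**Figure D1:**
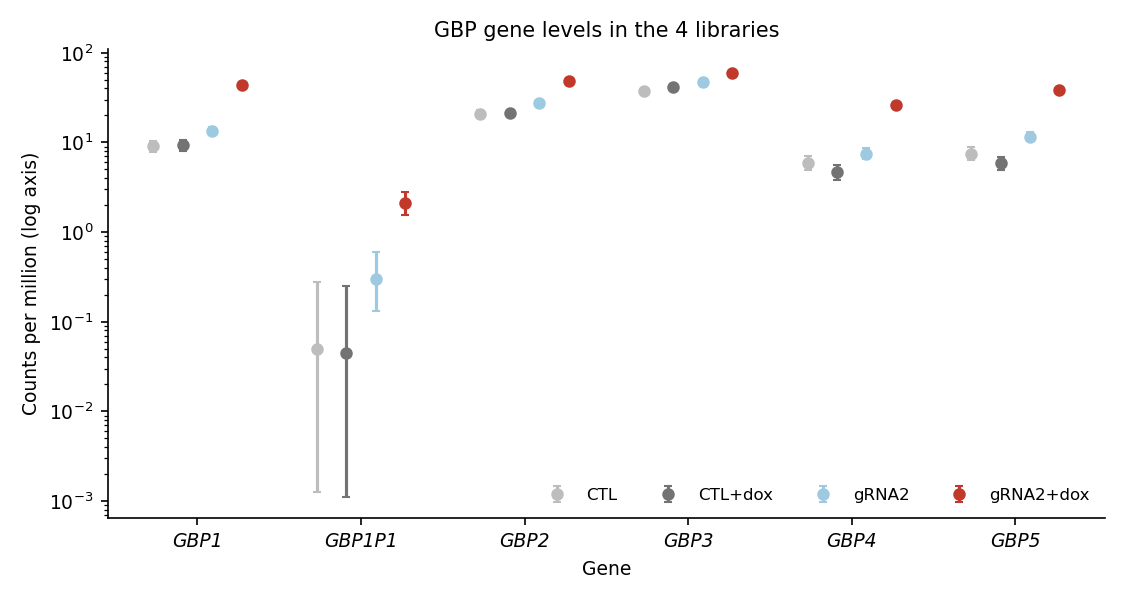
CPM (log axis) of the 6 GBP genes in the 4 libraries, with bars for exact Poisson 95% intervals. GBP1, GBP4 and GBP5 sit at 26.2 to 44 CPM in gRNA2+dox and at 4.67 to 13.5 CPM in the other libraries, and GBP3 shows the smallest spread.

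A gene was called higher where its log2 ratio was above 1 and the 1% quantile of the ratio under counting error was above 0.5. Over gRNA2, 4 of 6 members were called, GBP1, GBP1P1, GBP4 and GBP5, where 0.316% of all tested genes were called higher. Relative to CTL+dox, 5 of 6 were called, with GBP2 added, where 0.487% of tested genes were. Over CTL the same 5 were called, where 0.441% of tested genes were. No member was called lower in any comparison, and GBP3 was called in none. These percentages stand beside contrasts on which the members were selected, and nothing is read from them. The median member log2 ratio was 1.70 over gRNA2, 2.36 relative to CTL+dox and 2.21 over CTL, and the median over all tested genes was -0.00 in each. By size of the log2 ratio over gRNA2 among 15204 genes, GBP1P1 was at place 10, GBP4 at 51, GBP5 at 58, GBP1 at 60, GBP2 at 312 and GBP3 at 1319.

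**Figure D2:**
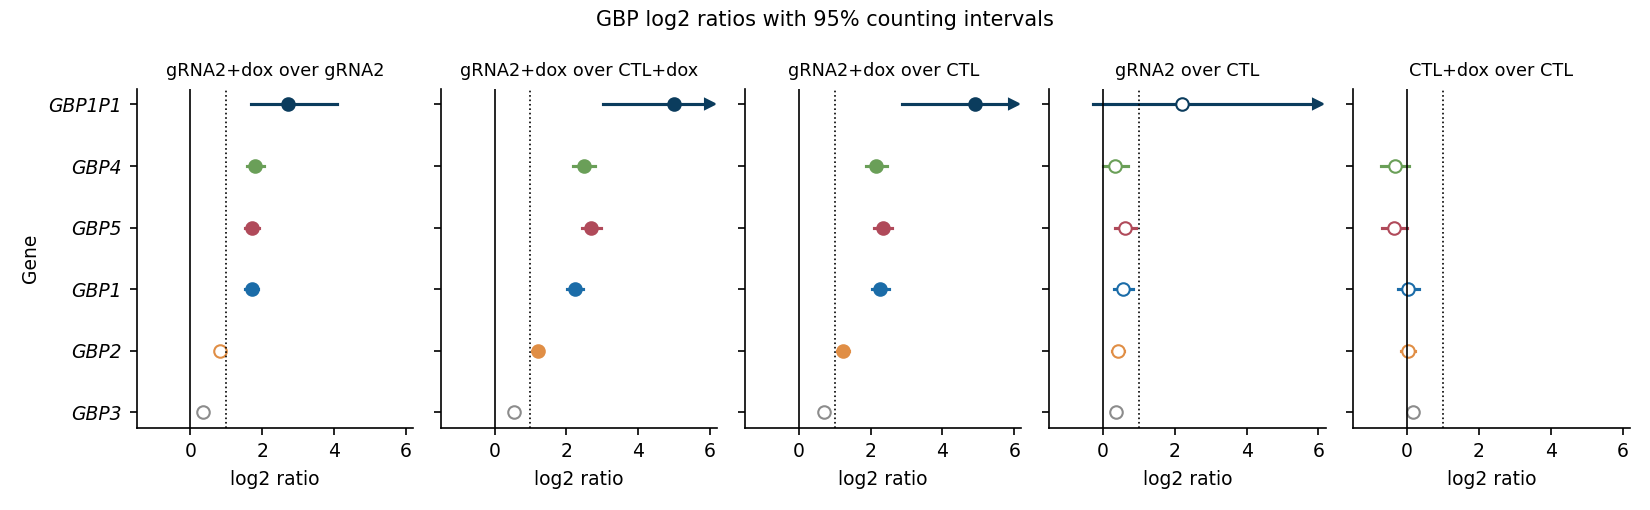
Log2 ratios of the 6 genes in the 5 comparisons, with lines for exact 95% Clopper-Pearson intervals of the reads, arrows where an interval runs past the axis, and filled points for genes called higher. The members run from 0.34 for GBP3 to 2.71 for GBP1P1 in gRNA2+dox over gRNA2, while no point is filled in gRNA2 over CTL or in CTL+dox over CTL.

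The remaining comparisons ask what the cells show without the induced guide and how CTL cells with dox differ from those without it. Dox acts there on cells that carry the control construct, so dox alone was not measured. In gRNA2 over CTL, both without dox and both labelled wild type, 0 of 6 members were called higher (0.145% of all tested genes were), yet all 6 log2 ratios were above 0. They were 0.57 for GBP1 (0.31 to 0.84), 0.42 for GBP2 (0.24 to 0.59), 0.35 for GBP3 (0.22 to 0.49), 0.35 for GBP4 (0.01 to 0.69), 0.63 for GBP5 (0.34 to 0.92) and 2.19 for GBP1P1 (-0.28 to 8.09). The interval of GBP1P1 reached below 0 and the other 5 did not. Over all tested genes 49.2% of log2 ratios were above 0 in that comparison. TCOF1 stood at -0.01 in it (-0.13 to 0.11). The gRNA2 library thus lay between CTL and gRNA2+dox for all 6 genes.

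In CTL+dox over CTL, 0 of the 5 members with a ratio were called higher (0.0855% of all tested genes were). The log2 ratios were 0.04 for GBP1 (-0.25 to 0.33), 0.04 for GBP2 (-0.16 to 0.23), 0.15 for GBP3 (0.01 to 0.29), -0.33 for GBP4 (-0.73 to 0.06) and -0.36 for GBP5 (-0.70 to -0.01). GBP3 was higher and GBP5 lower by more than counting error, both by small steps, and the other 3 were not. TCOF1 was lower in the same comparison (-0.59).

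How far the ratio with dox differed between gRNA2 cells and CTL cells was computed for each member as the difference of the log2 ratios, gRNA2 cells minus CTL cells. It was 2.14 for GBP4 (95% interval of counting error 1.70 to 2.59), 2.06 for GBP5 (1.68 to 2.45) and 1.66 for GBP1 (1.33 to 2.002). GBP2 stood at 0.78 (0.55 to 1.01) and GBP3 at 0.19 (0.01 to 0.36). Among all 15204 genes 3.23% had a difference above 1, and the median was 0.00. The log2 ratios with dox of GBP4 and GBP5 had opposite signs in the 2 kinds of cells. In CTL cells that of GBP4 was within counting error and that of GBP5 barely outside it.

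The family as a whole took 4785 reads in gRNA2+dox, 2845 in gRNA2, 1856 in CTL+dox and 1627 in CTL. That was 219 CPM (213 to 225), 108 CPM (104 to 112), 82.5 CPM (78.8 to 86.3) and 80.4 CPM (76.5 to 84.4). CTL and CTL+dox overlapped and the other libraries each stood apart by more than counting error. In bulk RNA, fewer or more cells making a transcript and less or more of it in each cell cannot be told apart. The make-up of these reads changed as well as their sum. GBP3 held 27.4% of them in gRNA2+dox, 43.9% in gRNA2, 50.1% in CTL+dox and 46.2% in CTL. GBP1 held 20.1% in gRNA2+dox and 11.3% to 12.5% in the others, and GBP5 held 17.3% and 7.11% to 10.8%. GBP4 held 12% in gRNA2+dox and 5.66% to 7.31% in the others. GBP2 held 22.3% in gRNA2+dox (21.1 to 23.5) and 25.6% to 25.8% in the others, a small step beyond counting error.

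**Figure D3:**
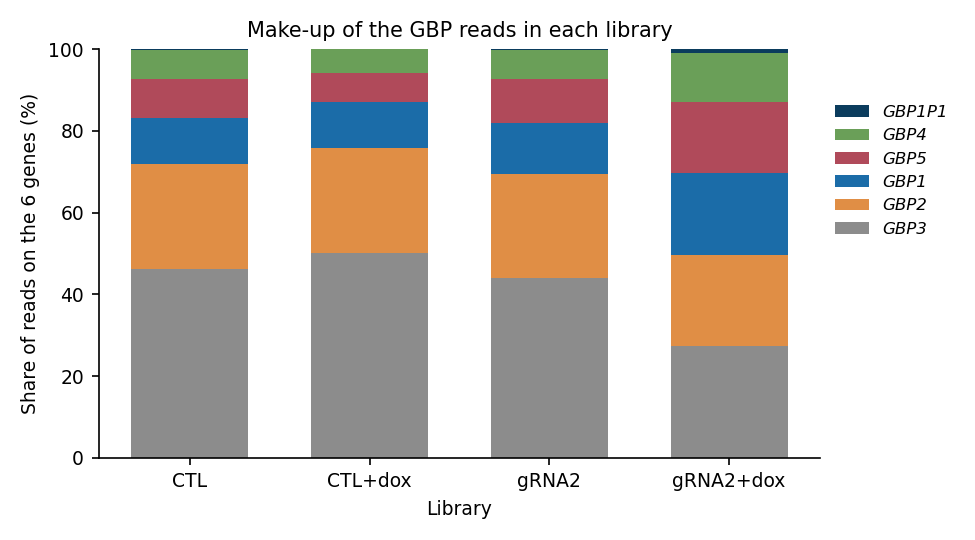
Share of the reads on the 6 genes that each gene held in each library, as stacked bars that sum to 100%. GBP3 holds 43.9% in gRNA2 and 27.4% in gRNA2+dox, where GBP1, GBP4 and GBP5 hold larger shares, and GBP1P1 stays at or below 0.961%.

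Levels of different genes were compared per kilobase of the exons of each gene. In CTL, CTL+dox and gRNA2 the order was GBP3, GBP2, GBP1, GBP4, GBP5 and GBP1P1, from the highest down. In CTL this ran from 8.66 CPM per kilobase for GBP3 through 2.87 for GBP2, 1.49 for GBP1, 0.958 for GBP4 and 0.685 for GBP5. The intervals of GBP4 and GBP5 overlapped in these 3 libraries, for example 1.22 (1.05 to 1.40) and 1.06 (0.945 to 1.19) in gRNA2. In gRNA2+dox GBP3 remained highest at 14.01 CPM per kilobase (13.3 to 14.8). GBP1 (7.21, 6.76 to 7.68) and GBP2 (6.76, 6.36 to 7.18) came next with overlapping intervals, then GBP4 at 4.27, GBP5 at 3.46 and GBP1P1 at 1.71. The order of GBP1 with GBP2 in gRNA2+dox and of GBP4 with GBP5 in every library turned when the longest transcript was used as the length, so these pairs have no settled order.

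GBP1P1 is a near copy of part of GBP1, and its reads need care. Of the 1234 bases of its transcript, 728 (59.0%) aligned to GBP1, in a block of 530 bases with 94.3% identity and a block of 198 bases with 98.5%. Windows of 50 bases found unchanged in a GBP1 transcript were 13.1% of those of GBP1P1, and at 100 bases they were 1.15%. Read length is not given in the sources used here. STAR counts only reads that map to 1 place, so reads from identical stretches are lost from both genes and reads with an error can fall to the other copy. GBP1P1 took 4.57% of the reads on both genes in gRNA2+dox (exact Clopper-Pearson 95% interval 3.36 to 6.05), 2.20% in gRNA2 (0.954 to 4.28), 0.474% in CTL+dox (0.0120 to 2.61) and 0.541% in CTL (0.0137 to 2.97). The interval of gRNA2+dox lay above those of CTL and CTL+dox and overlapped that of gRNA2. Whether stray GBP1 reads made part of the GBP1P1 counts was not tested. GBP1 with the GBP1P1 reads added to it gave the same calls as GBP1 alone.

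GBP7, a protein-coding relative between GBP2 and GBP4, followed the called members at low counts. It had 71 reads in gRNA2+dox, 34 in gRNA2, 16 in CTL+dox and 14 in CTL. The log2 ratio was 1.32 over gRNA2 (0.72 to 1.97), 2.16 relative to CTL+dox (1.40 to 3.08) and 2.20 over CTL (1.39 to 3.17), and GBP7 was called higher in these 3. Part of it, 21.5% of its 100-base windows, is also found in transcripts annotated to GBP2, so its reads are uncertain. In turn, 7.21% of the 100-base windows of GBP2 are found in GBP7 transcripts, so this limit holds for part of GBP2 too. Of the windows of GBP3, 12.8% at 25 bases and 0% at 100 bases are found in GBP1 transcripts. GBP6 had 11, 3, 10 and 6 reads in the same order. Its log2 ratio over gRNA2 was 1.95 with an interval of 0.22 to 4.63, over CTL+dox it was 0.17 (-1.19 to 1.57), and it was called in no comparison.

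Of PKN2, GTF2B, CCBL2 and RBMXL1 on one side of the cluster and LRRC8B, LRRC8C, LRRC8D and ZNF326 on the other, 0 of 8 were called in any comparison. Their log2 ratios over gRNA2 ran from -0.03 for LRRC8B (1744 reads in gRNA2+dox, 2142 in gRNA2, 1755 in CTL+dox and 1490 in CTL) to 0.15 for GTF2B (2372, 2582, 2355 and 1988 reads). The median was 0.03 over gRNA2, 0.11 relative to CTL+dox and 0.16 over CTL. RBMXL1 stood at 0.36 over CTL (0.20 to 0.52). In gRNA2 over CTL it also stood at 0.36 (0.20 to 0.52), about the log2 ratio of GBP3 and GBP4 there (both 0.35). Called higher among all tested genes were 0.0855% to 0.487%, depending on the comparison, so nothing is read from 0 of 8.

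**Figure D4:**
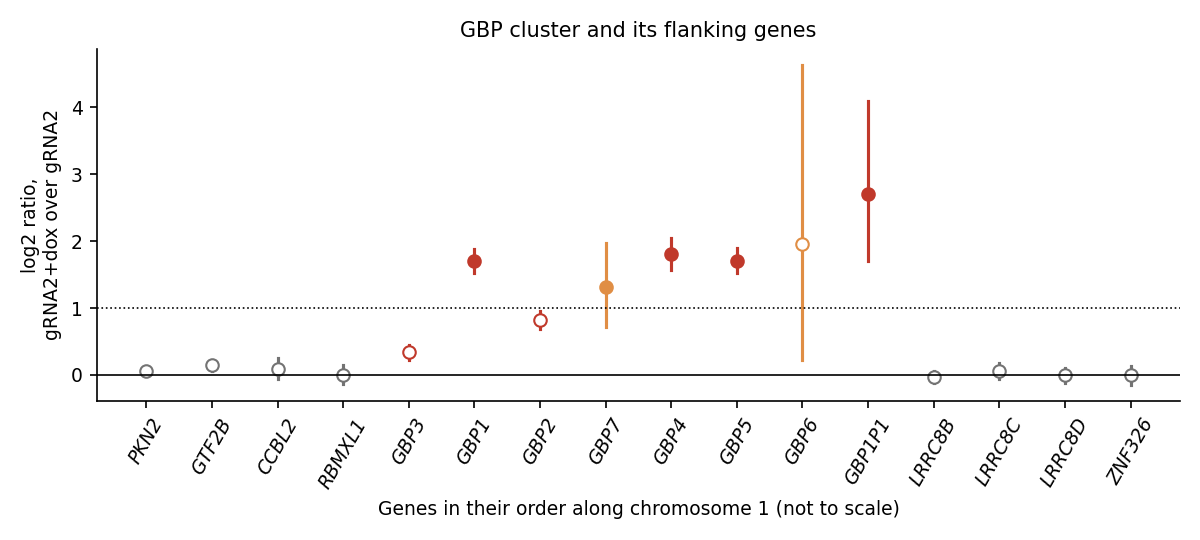
Log2 ratio of gRNA2+dox over gRNA2 for the genes of the cluster and 4 flanking genes on each side, in chromosome order and not to scale, with lines for 95% counting intervals. Filled points are genes called higher, red marks the 6 genes described, orange GBP6 and GBP7, and grey the flanking genes, which lie between -0.03 and 0.15.

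The rest of the pathway was read from lists chosen with earlier results of these data known, so they are not independent evidence. The interferon genes themselves were near or under the floor. IFNG had 1 read in gRNA2+dox, 0 in gRNA2, 1 in CTL+dox and 0 in CTL, and IFNB1 had 1, 3, 2 and 2. IFNA1, IFNA2, IFNE and IFNK had at most 2 reads in any library, IFNL2 at most 3 and IFNL3 at most 4. IFNL1, a type III interferon, had 8, 15, 5 and 7 reads. Of the cytokines that drive interferon gamma production in lymphocytes, IL12A had 8 to 11 reads and IL27 had 2, 13, 7 and 17, called lower over CTL. IL18 was well expressed, with 1675 reads in gRNA2+dox, 3103 in gRNA2, 2256 in CTL+dox and 2095 in CTL, and its log2 ratio over gRNA2 was -0.62 (-0.71 to -0.53), which was not called.

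None of the 6 interferon receptors (IFNGR1, IFNGR2, IFNAR1, IFNAR2, IFNLR1 and IL10RB) was called in any comparison. All had at least 600 reads in each library, and their log2 ratios over gRNA2 ran from -0.12 for IFNAR2 to 0.23 for IFNGR2. Depending on the comparison, 0.0855% to 0.487% of all tested genes were called higher. Of the transducers, IRF1, an interferon-induced factor that drives GBP transcription, had 2059 reads in gRNA2+dox, 1597 in gRNA2, 1030 in CTL+dox and 1026 in CTL. Its log2 ratio was 0.64 over gRNA2 (0.54 to 0.73), 1.04 relative to CTL+dox (0.93 to 1.15), where it was called higher, and 0.89 over CTL (0.79 to 1.005). STAT2 and IRF9, which act in the type I response, had log2 ratios over gRNA2 of 0.36 (0.21 to 0.52) and 0.31 (0.14 to 0.48) and were not called. JAK1, JAK2, TYK2 and IRF2 lay between 0.02 and 0.06 over gRNA2, and IRF8 had 0 reads in all 4 libraries.

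Of 39 tested interferon gamma target genes outside the family, 8 were called higher and 0 lower over gRNA2, 13 relative to CTL+dox and 12 over CTL. Of all tested genes, 0.316%, 0.487% and 0.441% were called higher in these comparisons. The median log2 ratio of the 39 genes was 0.53, 0.74 and 0.74. It was 0.21 in gRNA2 over CTL and 0.00 in CTL+dox over CTL, with 0 called. The highest over gRNA2 was CXCL10, a chemokine that draws T cells, with 206, 27, 45 and 24 reads and a log2 ratio of 3.17 (2.62 to 3.84). The lowest was TAPBP, which loads peptides on class I molecules, at -0.01 (-0.05 to 0.04). Of 35 type I interferon targets, 3 were called higher over gRNA2, 6 relative to CTL+dox and 5 over CTL, with medians of 0.24, 0.32 and 0.37. IFI44L was highest over gRNA2, with 18, 2, 0 and 2 reads and a log2 ratio of 3.11 (1.38 to 6.59). MX2, an antiviral GTPase, was lowest at -1.04 (-2.59 to 0.23) on 7 reads against 18.

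NF-kappa-B targets gave 0 of 21 called over gRNA2, 1 relative to CTL+dox and 0 over CTL, with a median of -0.04 over gRNA2. The highest was CXCL2 at 0.75 (0.41 to 1.09) and the lowest CCL20 at -1.08 (-2.79 to 0.28). The shares of all tested genes called higher were 0.316%, 0.487% and 0.441%, so nothing is read from 0 called in a list this short. Which signals set these lists apart was not tested. None of the 9 inhibitors of interferon signalling was called. SOCS1, which blocks JAK kinases and is itself induced by interferon, was highest over gRNA2 at 0.84 (0.69 to 0.99), and PTPN6 was lowest at -0.28 (-0.45 to -0.10). SOCS1 had 912 reads in gRNA2+dox, 616 in gRNA2, 822 in CTL+dox and 631 in CTL. Its log2 ratio was smaller elsewhere, 0.19 relative to CTL+dox (0.06 to 0.33) and 0.42 over CTL (0.27 to 0.57), and it was -0.41 in gRNA2 over CTL (-0.58 to -0.25).

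**Figure D5:**
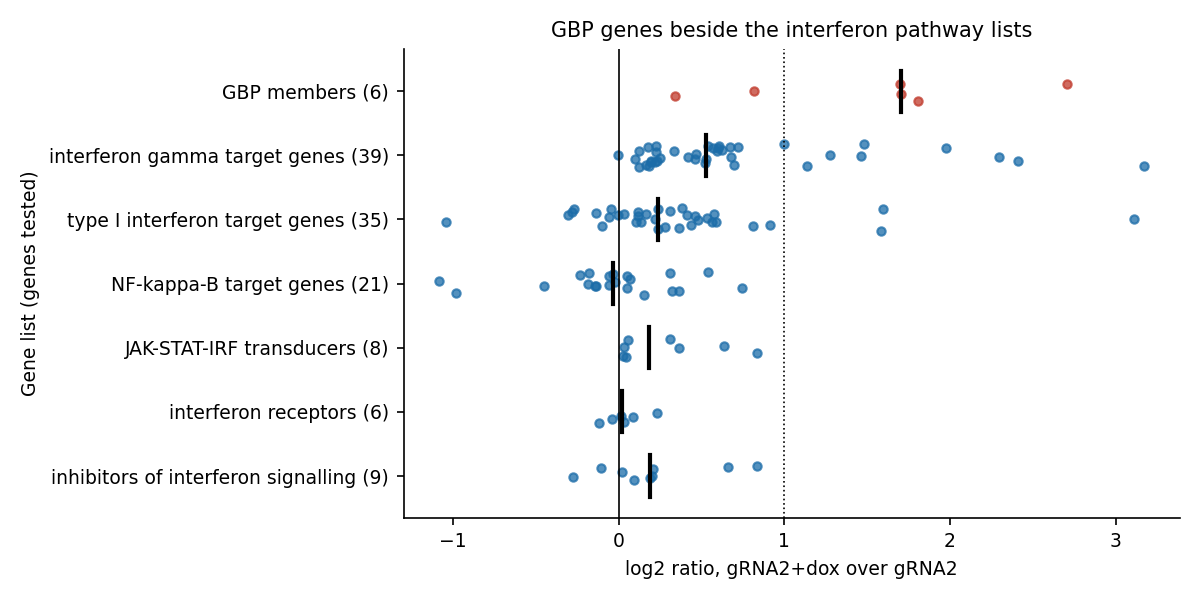
Log2 ratio of gRNA2+dox over gRNA2 for each tested gene of the 6 members and 6 pathway lists, with the number tested in parentheses and a black bar at the median. The median is 1.70 for the members, 0.53 for interferon gamma targets, 0.24 for type I targets and 0.02 for the receptors, and the dotted line marks a log2 ratio of 1.

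Genes close to the GBP proteins by structure or function were, but for AIM2 and APOL3, not called. Of 12 large GTPases of the dynamin superfamily outside the family, 0 were called in any comparison, with MX1 highest over gRNA2 at 0.31 (0.22 to 0.41) and MX2 lowest. Of 9 tested genes of prenylation and GBP control, 0 were called, from RCE1 at 0.33 (0.17 to 0.49) to PGGT1B, which attaches the geranylgeranyl group, at -0.07 (-0.31 to 0.17). Of 12 inflammasome and pyroptosis genes, 1 was called over gRNA2, 2 relative to CTL+dox (with APOL3 added) and 1 over CTL. The gene called in all 3 was AIM2, a sensor of cytosolic DNA, with 34, 9, 2 and 7 reads and a log2 ratio of 2.12 (1.10 to 3.43). IL18 was the lowest of them. Of all tested genes, 0.316% were called higher over gRNA2, 0.487% relative to CTL+dox and 0.441% over CTL. Nothing is therefore read from 0 called in lists this short. MX1, MX2, APOL3 and IL18 also stand in the interferon lists above, so the lists overlap.

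GBP genes are also well expressed in blood cells, so markers of other cell types were summed. The 18 white blood cell markers summed to 179 CPM in gRNA2+dox, 182 in gRNA2, 171 in CTL+dox and 158 in CTL, with 6 to 8 of 18 above the floor, and CD68, CSF1R and CD14 made up most of the sum. CD3D, NKG7 and TYROBP had 0 reads in all 4 libraries and PTPRC had at most 2. The 9 fibroblast and endothelial markers summed to 18.0 to 22.6 CPM, mostly COL1A1, with CDH5 at 0 in all 4 libraries.

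Genes whose pattern over the 4 libraries was most like that of the members were ranked by the root mean square difference of log2 CPM, each gene centred on its own mean. The comparison took 12462 other genes that reached 50 counts in 1 library or more, and the mean of the 5 members that reach this count. IFIT2 came closest at 0.112, followed by IDO1 (0.131), BATF2 (0.158), IFIT3 (0.177), NNMT (0.186), CLEC2B (0.192), CXCL11 (0.193), GBP7 (0.193), TRIM15 (0.203) and SERPINB4 (0.208). IFIT2 had 185 reads in gRNA2+dox, 74 in gRNA2, 46 in CTL+dox and 46 in CTL, and IDO1, which degrades tryptophan, had 3548, 1533, 1127 and 893. Within the family GBP4 and GBP5 were each other's nearest at 0.127 and GBP1 was nearest to GBP4 at 0.136, with 0 other genes nearer to any of the 3. GBP2 and GBP3 were nearest to each other within the family at 0.250, but 75 other genes were nearer to GBP2 and 4491 were nearer to GBP3. The likeness is over 4 libraries only, whose depth and scaling all genes share, and is a description.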

How the data were processed

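RNA of MDA-MB-468 mammospheres was measured in 4 libraries, 1 per condition, and groups follow the sample titles. The authors trimmed reads with fastp, aligned them to hg38 with STAR and deposited raw counts of reads per gene, without normalization. The STAR version, annotation and read length are not given in the sources used here. The unstranded counts were used, and the 4 summary rows of unassigned reads were left out of library sizes. Genes held 79.7% to 81.0% of reads. No columns of other samples were present.

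Counts were scaled with edgeR 4.0.16 (TMM) in R 4.3.3, with a prior count of 0.5, for 15204 genes that reached 10 counts in 1 library or more. Intervals and the 1% posterior bound under Poisson error, which stands in place of the authors' GFOLD, came from scipy 1.17.1 and numpy 2.4.6 (Python 3.11.15). The call rule and the interval of a ratio were tested on simulated counts with Poisson error only, so culture-to-culture variation was not covered. Changes were simulated in well-counted genes, so their recovery at low counts was not tested. Plots were drawn with matplotlib 3.10.9. The difference of log2 ratios used 400000 posterior draws. With 1 library per condition no test across replicates exists and no p-value is given, and precision is set by the reads of each gene.

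The members and gene lists were chosen with earlier results of these data known. Named genes are the members, TCOF1, all listed ligands, receptors, transducers, neighbours and other GBP genes, the highest and lowest gene of each other pathway list over gRNA2, and the 10 genes nearest in pattern. Some of these genes are not reported here. Marker genes named from the cell type lists, and APOL3, were chosen after their values were seen. Exon lengths and transcript sequences came from GENCODE 44 lifted to GRCh37, matched by symbol for 91.5% of tested genes, and coordinates and promoters from RefSeq GRCh38.p14.

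Results were recomputed with a prior count of 5, a minimum of 50 counts, no filter, scaling by totals or by DESeq2 1.42.0 size factors, thinning to the smallest total, both stranded columns summed, GBP1 and GBP1P1 summed, and, for calls, a bound at the 5% quantile, the log2 ratio alone and an added coefficient of variation of 0.1.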

Additional observations from a re-analysis of the deposited data

Results flagged for a closer look

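The log2 ratios with dox of GBP4 and GBP5 had opposite signs in the 2 kinds of cells. GBP4 went from 5.88 to 4.67 CPM in CTL cells and from 7.48 to 26.2 CPM in gRNA2 cells, and the difference of its log2 ratios, gRNA2 cells minus CTL cells, was 2.14. GBP5 went from 7.51 to 5.87 CPM and from 11.6 to 38.0 CPM, with a difference of 2.06. The fall of GBP4 in CTL cells was within counting error and that of GBP5 was barely outside it. Each kind of cell has 1 library per dox state, so neither difference was tested across replicates.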

How the results depend on the processing

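Of 311 values of single member log2 ratios under the alternatives, 310 kept their direction and their side of the cutoffs. The other was GBP1P1 in gRNA2 over CTL, which passes (2.19) when the log2 ratio alone is used, so that 1 of 6 members is then called there in place of 0. All 40 differences of the dox ratios stayed within their counting intervals. With the longest transcript as length, GBP4 took place 5 and GBP5 place 4 in all 4 libraries, and in gRNA2+dox GBP2 took place 2 and GBP1 place 3. The cause in each case is the alternative's own construction. The members called against gRNA2, CTL+dox and CTL stayed 4, 5 and 5, or 3, 4 and 4 where GBP1P1 was filtered out or merged. The background count of genes called higher against gRNA2 was 48, and it was 21 with at least 50 counts, 97 at the 5% quantile, 219 with the log2 ratio alone and 25 with the added variation. Against CTL+dox the 74 became 42, 138, 297 and 46 in the same order. Against CTL the 67 became 40, 117, 268 and 36, in gRNA2 over CTL the 22 became 5, 64, 212 and 3, and in CTL+dox over CTL the 13 became 1, 62, 217 and 0. No filter (24) and thinning (8) also moved the last count. No paired analysis was possible because the labels carry no replicate numbers and every group holds 1 library, and for the same reason no library could be left out of a group. Depth limits GBP1P1 and GBP6 most. Culture-to-culture variation, which 1 library per condition cannot show, is in none of the intervals.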
